A study of Mus musculus with 2 samples.

Results

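The 10 genes of the insulin-like growth factor (IGF) axis that were listed by symbol, out of 27998 genes annotated in the count matrices, were Igf1, Igfbp1, Igfbp2, Igfbp4, Igfals, Ghr, Igf2r, Insr, Irs1 and Irs2, and all 10 were matched in both libraries. The matrices came from droplet-based single-cell RNA-Seq of hepatocytes isolated by collagenase perfusion from mice on a normal diet, of strain C57BL/6 and aged 10 to 12 weeks per the labels. The study's methods name the strain C57BL/6J, give the sex as male and state a lower age at surgery. One library (0 h, undamaged liver) and another taken 48 h after partial hepatectomy (PHx), the surgical removal of liver lobes, were each made from 1 mouse. Each time point was therefore 1 library, so that time, mouse and library cannot be told apart, no test of the condition was possible, and the intervals given here are 95% intervals for counting error only. The labels name no transgene, and any cells other than hepatocytes are those that came through the isolation.

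The liver is the main source of circulating IGF-1, which it makes in response to growth hormone acting on the growth hormone receptor. In blood IGF-1 travels bound to IGF-binding proteins, some of it in a complex that is held together by the acid-labile subunit. Insulin and IGF-1 signal through related receptor tyrosine kinases, which pass the signal on to the adaptors IRS1 and IRS2, and insulin keeps the hepatic gene for IGFBP1 low through forkhead transcription factors.

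A unique molecular identifier (UMI) tags 1 captured transcript, a barcode tags 1 droplet, and levels are given as UMIs per 1000000 non-mitochondrial UMIs (CPM) after summing the barcodes of a set. The 0 h library held 59202 barcodes and 96118593 UMIs, and the 48 h library held 1586 barcodes and 18198719 UMIs. Barcodes with over 30% mitochondrial UMIs, called high-mitochondrial here, numbered 3870 at 0 h and 765 at 48 h. Barcodes under 2%, called low-mitochondrial, numbered 52314 and 508 after removal of the clusters of other or unclear cell type. The low-mitochondrial set was taken to stand for RNA common to all droplets, and whether its barcodes held cells was not tested. Barcodes at or under 30% in clusters that carried the markers of macrophages, endothelial cells, stromal cells or B cells, called non-hepatocyte, numbered 556 and 91. The median number of non-mitochondrial UMIs per barcode was 1213.5 at 0 h and 4411 at 48 h in the high-mitochondrial set, 1412 and 5262 in the low-mitochondrial set, and 2153.5 and 6277 in the non-hepatocyte set. All 10 hepatocyte markers had UMIs in every set, at a summed 113963 to 123872 CPM in high-mitochondrial, 68890 to 101781 CPM in low-mitochondrial and 24195 to 66115 CPM in non-hepatocyte barcodes. The libraries shared 148 barcodes, and without them 3, 7 and 6 members were at least 2-fold lower at 48 h in the 3 sets, the same counts as with them. The median mitochondrial share of the high-mitochondrial barcodes was 48.2% at 0 h and 57.0% at 48 h, and the study's own analysis left out cells of high mitochondrial content.

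Promoter windows ran from 250 bases before to 50 bases after a RefSeq transcription start (GRCm38.p6). For Insr none was at hand, and for the other 9 of the 10 genes there were 13 windows in all. They were searched on both strands for the forkhead-type motifs CAAAACA and GTAAACA and the STAT5-type motif TTCNNNGAA. CAAAACA was found in 1 window each of Igfbp1, Irs1 and Irs2 and in 6.28% of all 32851 windows. GTAAACA was found in 1 Igfals window and in 3.65% of all windows. TTCNNNGAA was found in 2 Igfals windows and in 8.30% of all windows, and no 2 matches in the windows of the 9 genes overlapped. The windows that held a forkhead-type match are printed because IGFBP1 and IRS2 are textbook examples of insulin-repressed forkhead targets; each runs 5′ to 3′ on the strand of its gene, and capitals mark the matches. A match describes the letters of a window and was not read as a binding site. The Igfbp1 window lies at chr11:7197537-7197836 on the plus strand, with its match from 108 to 102 bases before the start.
Igfbp1: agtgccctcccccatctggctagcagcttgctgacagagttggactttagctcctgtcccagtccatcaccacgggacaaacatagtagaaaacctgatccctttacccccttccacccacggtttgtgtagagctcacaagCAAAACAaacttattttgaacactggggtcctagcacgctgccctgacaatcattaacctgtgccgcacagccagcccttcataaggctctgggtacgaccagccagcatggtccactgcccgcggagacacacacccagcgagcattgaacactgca
The Irs1 window lies at chr1:82291390-82291689 and the Irs2 window at chr8:11008880-11009179, both on the minus strand, where the matches read TGTTTTG.
Irs1: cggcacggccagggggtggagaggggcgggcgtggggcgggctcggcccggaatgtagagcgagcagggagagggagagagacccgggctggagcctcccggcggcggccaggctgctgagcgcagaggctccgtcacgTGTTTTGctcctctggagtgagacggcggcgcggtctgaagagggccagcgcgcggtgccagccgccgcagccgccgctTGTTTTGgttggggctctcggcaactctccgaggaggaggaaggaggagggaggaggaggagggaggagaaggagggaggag
Irs2: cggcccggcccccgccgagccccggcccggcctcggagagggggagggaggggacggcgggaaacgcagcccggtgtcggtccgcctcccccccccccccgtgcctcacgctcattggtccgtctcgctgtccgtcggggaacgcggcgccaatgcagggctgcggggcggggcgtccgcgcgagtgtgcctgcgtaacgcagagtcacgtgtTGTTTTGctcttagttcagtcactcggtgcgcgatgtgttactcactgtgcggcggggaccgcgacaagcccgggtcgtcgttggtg
The Igfals window lies at chr17:24877981-24878280 on the plus strand and held TGTTTAC near its upstream end and TTCCTAGAA from 58 to 50 bases before the start.
Igfals: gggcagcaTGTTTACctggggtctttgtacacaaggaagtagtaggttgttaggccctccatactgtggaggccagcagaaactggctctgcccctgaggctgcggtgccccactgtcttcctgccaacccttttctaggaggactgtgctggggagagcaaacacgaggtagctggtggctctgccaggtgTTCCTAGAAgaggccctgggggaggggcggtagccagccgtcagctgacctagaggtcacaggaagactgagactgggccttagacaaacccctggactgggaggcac

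In the high-mitochondrial barcodes, of the 9 members that had a mean of at least 10 CPM over both libraries, 3 (Ghr, Igfbp2 and Igfals) were at least 2-fold lower at 48 h, none was at least 2-fold higher, and 6 lay within 2-fold. Of the 6718 genes that passed the same filter, 5.52% were at least 2-fold lower and 30.6% at least 2-fold higher. The median log2 ratio of 48 h to 0 h was -0.66 over the 9 members and 0.54 over all genes. This upward centre depended on the scaling: with TMM factors of edgeR the median of all genes was -0.04, the higher share of the genes called went from 84.7% to 45.4%, and 5 members were at least 2-fold lower, with Igf1 and Insr added. Summed markers of macrophages were at 37.2 CPM at 0 h and 25.9 CPM at 48 h, of endothelial cells at 37.2 and 58.6 CPM, and of stromal cells at 28.4 and 35.1 CPM, against 1621 to 6779 CPM for these 3 classes in the non-hepatocyte barcodes. The summed 11 immediate early and heat shock genes were at 220 CPM at 0 h and 471 CPM at 48 h, and the nuclear transcripts Malat1 and Neat1 together at 5964 and 3423 CPM. The part of these differences, of depth and of the mitochondrial share in the members' ratios was not tested.

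**Figure D1:**
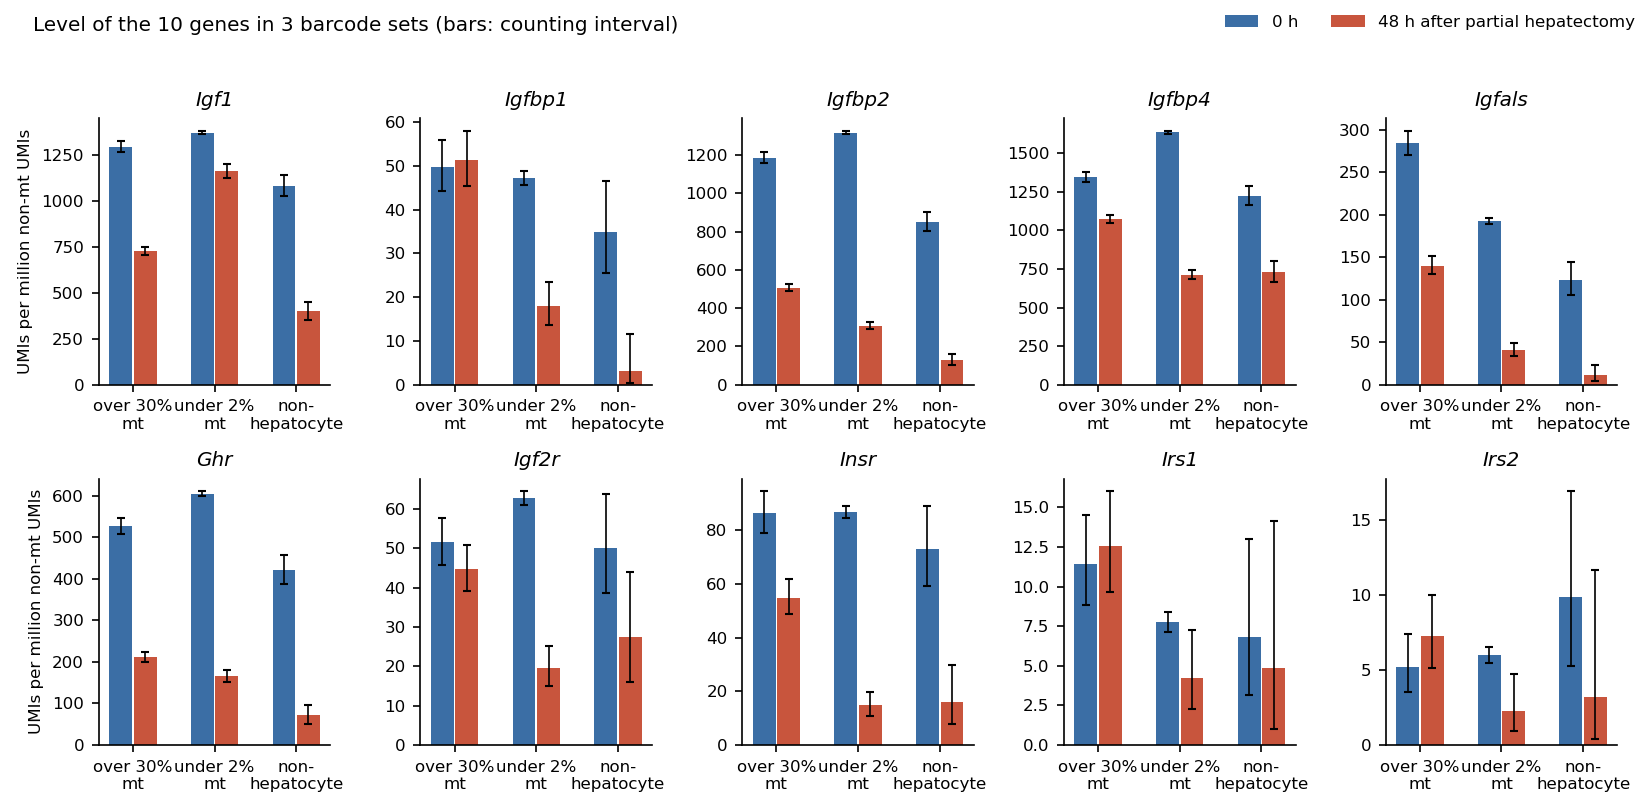
Levels of the 10 genes (y axis, UMIs per 1000000 non-mitochondrial UMIs, each panel on its own scale from 0) in high-mitochondrial, low-mitochondrial and non-hepatocyte barcodes (x axis) at 0 h (blue) and 48 h (red), with 1 library per time point and 95% Poisson counting intervals. Igfbp1 stands at 49.8 and 51.3 in the high-mitochondrial set, whereas Igfbp2 stands at 1186 and 507.

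Igf1 (chr10:87858265-87937042, plus strand) encodes the ligand IGF-1. In the high-mitochondrial barcodes it was at 1296 CPM at 0 h (interval 1267 to 1326, 7488 UMIs) and at 728 CPM at 48 h (704 to 751, 3713 UMIs), which was 1.78-fold lower (1.71 to 1.85). In the low-mitochondrial barcodes it was at 1373 CPM at 0 h and 1161 CPM at 48 h, a log2 ratio of -0.24 (-0.29 to -0.19), the smallest difference of the 8 members that passed the filter there. In the non-hepatocyte barcodes it was at 1083 CPM at 0 h and 399 CPM at 48 h, which was 2.72-fold lower (2.37 to 3.12). The order of the sets was therefore low-mitochondrial, high-mitochondrial, non-hepatocyte at both times, without overlap of the counting intervals, and the spread between them was wider at 48 h. After each barcode was thinned to 1000 non-mitochondrial UMIs, 71.4% of the 2471 high-mitochondrial barcodes deep enough at 0 h and 49.0% of 761 at 48 h held an Igf1 UMI, against 75.0% and 89.4% of all the barcodes of the set without thinning. The share in the low-mitochondrial barcodes was 74.3% and 69.9% with thinning, and in the non-hepatocyte barcodes 67.4% and 34.1%.

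The 4 genes for carriers of IGF-1 in blood differed in their ratios between the time points. Igfbp2 (chr1:72824503-72852474, plus strand), which encodes a binding protein secreted by hepatocytes, was at 1186 CPM at 0 h (1158 to 1214, 6852 UMIs) and 507 CPM at 48 h (488 to 527, 2587 UMIs) in the high-mitochondrial set, 2.34-fold lower (2.24 to 2.45). It was 4.26-fold lower in low-mitochondrial barcodes, from 1318 to 309 CPM, and 6.59-fold lower in non-hepatocyte barcodes, from 851 to 129 CPM. Igfals (chr17:24865997-24882010, plus strand), the gene for the acid-labile subunit, was at 285 CPM at 0 h (271 to 299) and 140 CPM at 48 h (130 to 151) in the high-mitochondrial set, 2.03-fold lower (1.86 to 2.22), which is close to the 2-fold limit. It was 4.71-fold lower in low-mitochondrial barcodes (193 to 40.9 CPM) and lower by a log2 ratio of -3.45 (-4.79 to -2.38) in non-hepatocyte barcodes (124 to 11.3 CPM, the latter on 7 UMIs). Igfbp2 and Igfals were thus lower at 48 h in all 3 sets.

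Igfbp1 (chr11:7197782-7202546, plus strand) encodes the binding protein that insulin represses in hepatocytes. It was at 49.8 CPM at 0 h (44.3 to 55.9, 288 UMIs) and 51.3 CPM at 48 h (45.3 to 57.9, 262 UMIs) in the high-mitochondrial set, a log2 ratio of 0.04 (-0.20 to 0.29). In the low-mitochondrial set it was at 47.2 CPM at 0 h and 18.0 CPM at 48 h (13.6 to 23.4, 55 UMIs), 2.62-fold lower (2.01 to 3.49). In the non-hepatocyte set it was at 35.0 CPM at 0 h on 46 UMIs and 3.23 CPM at 48 h on 2 UMIs, a ratio of 10.8-fold with an interval of 2.83 to 92.0. That member passed the level filter in the non-hepatocyte set only through its 0 h level. The direction of the high-mitochondrial ratio depended on the processing, from -0.52 with TMM factors to 0.31 with only the 1500 deepest barcodes of the 0 h library. Igfbp4 (chr11:99041244-99054392, plus strand) encodes a binding protein that is made in many tissues. It was at 1347 CPM at 0 h (1317 to 1377) and 1073 CPM at 48 h (1045 to 1102) in the high-mitochondrial set, 1.25-fold lower, and at 1224 and 730 CPM in the non-hepatocyte set, 1.68-fold lower. Only in the low-mitochondrial barcodes did it pass the 2-fold limit, from 1635 to 714 CPM (2.29-fold lower, 2.20 to 2.39). In high-mitochondrial barcodes, neither Igfbp1 nor Igfbp4 was therefore 2-fold apart between the time points.

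The receptor genes differed between the time points to different extents. Ghr (chr15:3317760-3583492, minus strand), for the growth hormone receptor, was at 526 CPM at 0 h (508 to 545, 3040 UMIs) and 212 CPM at 48 h (199 to 225, 1081 UMIs) in the high-mitochondrial set, 2.48-fold lower (2.32 to 2.66), the lowest ratio of the 9 members tested there. It was 3.65-fold lower in low-mitochondrial barcodes (605 to 165 CPM) and 5.92-fold lower in non-hepatocyte barcodes (421 to 71.1 CPM). Insr (chr8:3122061-3279617, minus strand), for the insulin receptor, was at 86.5 CPM at 0 h (79.1 to 94.5) and 54.9 CPM at 48 h (48.6 to 61.7) in the high-mitochondrial set, 1.58-fold lower. Insr was 5.89-fold lower in low-mitochondrial barcodes (86.7 to 14.7 CPM, 45 UMIs at 48 h) and 4.52-fold lower in non-hepatocyte barcodes (72.9 to 16.2 CPM, 10 UMIs at 48 h). Igf2r (chr17:12682406-12769664, minus strand) encodes the IGF-2 and mannose 6-phosphate receptor, which clears IGF-2 and sorts lysosomal enzymes. It was at 51.6 CPM at 0 h (45.9 to 57.8) and 44.7 CPM at 48 h (39.1 to 50.9) in the high-mitochondrial set, with overlapping intervals, and 3.20-fold lower in low-mitochondrial barcodes (62.7 to 19.6 CPM). In non-hepatocyte barcodes it was at 50.1 and 27.5 CPM (66 and 17 UMIs), 1.83-fold lower (1.06 to 3.32).

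The adaptor genes Irs1 (chr1:82233101-82291416, minus strand) and Irs2 (chr8:10984681-11008458, minus strand), which link the insulin and IGF-1 receptors to PI3-kinase, had few UMIs. Irs1 was at 11.4 CPM at 0 h (8.83 to 14.5, 66 UMIs) and 12.5 CPM at 48 h (9.66 to 16.0, 64 UMIs) in the high-mitochondrial set, a log2 ratio of 0.13 (-0.38 to 0.65). Irs2 was at 5.19 CPM at 0 h (30 UMIs) and 7.25 CPM at 48 h (37 UMIs) there and did not reach the level filter in any of the 3 sets. In low-mitochondrial barcodes, where neither gene reached the filter, Irs1 was at 7.74 and 4.25 CPM (13 UMIs at 48 h), 1.82-fold lower (1.06 to 3.44), and Irs2 at 5.99 and 2.29 CPM (7 UMIs at 48 h), 2.62-fold lower (1.26 to 6.54). The counting interval of the 48 h to 0 h ratio in the high-mitochondrial barcodes ran from 0.766 to 1.57 for Irs1 and from 0.839 to 2.34 for Irs2, so that no difference in either gene was detectable there at this depth.

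In the low-mitochondrial barcodes 7 of the 8 members that passed the filter were at least 2-fold lower at 48 h (Igfbp1, Igfbp2, Igfbp4, Igfals, Ghr, Igf2r and Insr) and none was at least 2-fold higher. Of the 5691 genes that passed, 21.8% were at least 2-fold lower and 25.8% at least 2-fold higher, and the median log2 ratio was -1.77 over the 8 members and 0.08 over all genes. In the non-hepatocyte barcodes 6 of the 8 members that passed were at least 2-fold lower (Igf1, Igfbp1, Igfbp2, Igfals, Ghr and Insr) and none was higher, beside 13.0% lower and 27.9% higher of 8814 genes. Of these 6, Igfbp1 passed the level filter only through its 0 h level, at 35.0 against 3.23 CPM. The median log2 ratio in the non-hepatocyte barcodes was -2.37 over the 8 members, Igfbp1 included, and 0.37 over all genes. In that set the summed hepatocyte reference, 10 abundant plasma protein and lipoprotein genes, was at 78378 CPM at 0 h and 32927 CPM at 48 h, and its makeup changed from 273 macrophage, 147 endothelial, 113 stromal and 23 B cell barcodes to 21, 27, 43 and 0. The same reference was at 121146 and 95351 CPM in the low-mitochondrial and at 168367 and 137781 CPM in the high-mitochondrial barcodes. With TMM factors the higher share of the genes called went from 54.2% to 38.8% in the low-mitochondrial and from 68.2% to 41.9% in the non-hepatocyte barcodes, and the named members remained at least 2-fold lower, with Igfbp4 and Igf2r added in the non-hepatocyte barcodes.

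**Figure D2:**
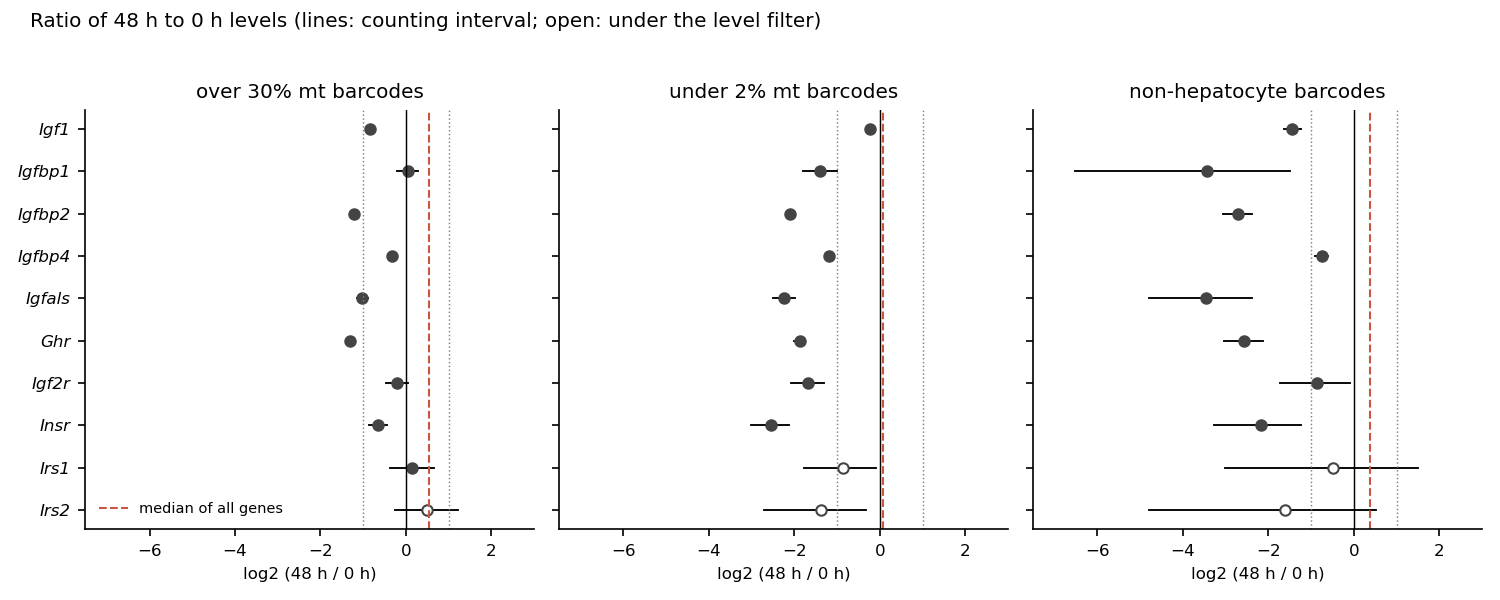
Log2 ratio of the 48 h level to the 0 h level (x axis) of each gene (y axis) in the 3 barcode sets, with exact conditional 95% counting intervals as lines, open points for genes under the level filter, dotted lines at 2-fold and a dashed red line at the median of all genes that passed. The filled points of Ghr, Igfbp2 and Igfals lie left of the lower dotted line in every panel, at -1.31, -1.23 and -1.02 in the high-mitochondrial barcodes.

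The sets of each library were then compared with each other, as descriptions within 1 library. At 0 h no member that passed the filter (8 of 10) differed by 2-fold between high- and low-mitochondrial barcodes, beside 22.7% of 5774 genes in either direction, and none did between non-hepatocyte and low-mitochondrial barcodes, beside 34.5% of 7162 genes. With TMM or median-of-ratios factors all 8 that passed were at least 2-fold lower in the non-hepatocyte than in the low-mitochondrial barcodes at 0 h, so that this count depended on the scaling. Igfals showed the widest high to low difference at 0 h, 285 against 193 CPM (1.48-fold, log2 0.56, 0.49 to 0.64). At 48 h 4 of the 8 members that passed were at least 2-fold higher in the high-mitochondrial barcodes, beside 31.5% of 6534 genes that were higher and 7.55% that were lower: Insr (3.73-fold), Igfals (3.43-fold), Igfbp1 (2.85-fold) and Igf2r (2.28-fold). With TMM factors Igfbp1 and Igf2r were no longer past 2-fold and Igf1 was at least 2-fold lower, so that Insr, Igfals and Igf1 were called. Igf1 went the other way from those 4 members, at 728 CPM in high-mitochondrial and 1161 CPM in low-mitochondrial barcodes (log2 -0.67, -0.74 to -0.61). Between non-hepatocyte and low-mitochondrial barcodes at 48 h 5 of 8 were at least 2-fold lower (Igf1, Igfbp1, Igfbp2, Igfals and Ghr), beside 10.7% of 8008 genes that were lower and 50% that were higher. Of these, Igfbp1 passed the level filter only through the low-mitochondrial set, at 18.0 against 3.23 CPM. Igfbp4 was at 730 and 714 CPM in those sets, a log2 ratio of 0.03 (-0.12 to 0.18). With TMM factors the higher share of the genes called went from 51.6% to 31.8% for high against low at 0 h and from 80.7% to 36.4% at 48 h, and from 98.9% to 34.6% and from 82.4% to 45.8% for non-hepatocyte against low.

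The levels on either side of the 2% and 30% limits were also read. For Igfbp1 at 48 h the barcodes just under the upper limit (10 to 30%) were at 48.2 CPM (39.4 to 58.4) and those just over it (30 to 50%) at 52.7 CPM (43.8 to 62.8), whereas those with 2 to 10% were at 12.1 CPM on 66 barcodes. Igfals at 48 h was at 40.9 CPM under 2%, 69.9 CPM at 2 to 10%, 70.0 CPM at 10 to 30%, 125 CPM at 30 to 50% and 154 CPM over 50%. Igf1 at 48 h ran the other way, at 1161, 938, 894, 783 and 680 CPM over the same steps. At 0 h the same steps gave 1373, 1370, 1383, 1313 and 1241 CPM for Igf1, and 47.2, 46.6, 45.8, 51.5 and 44.7 CPM for Igfbp1. Insr and Igfbp2 at 48 h were lower under 10% than over 30%, at 14.7 to 16.9 against 52.3 to 57.8 CPM and at 270 to 309 against 483 to 527 CPM.

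**Figure D3:**
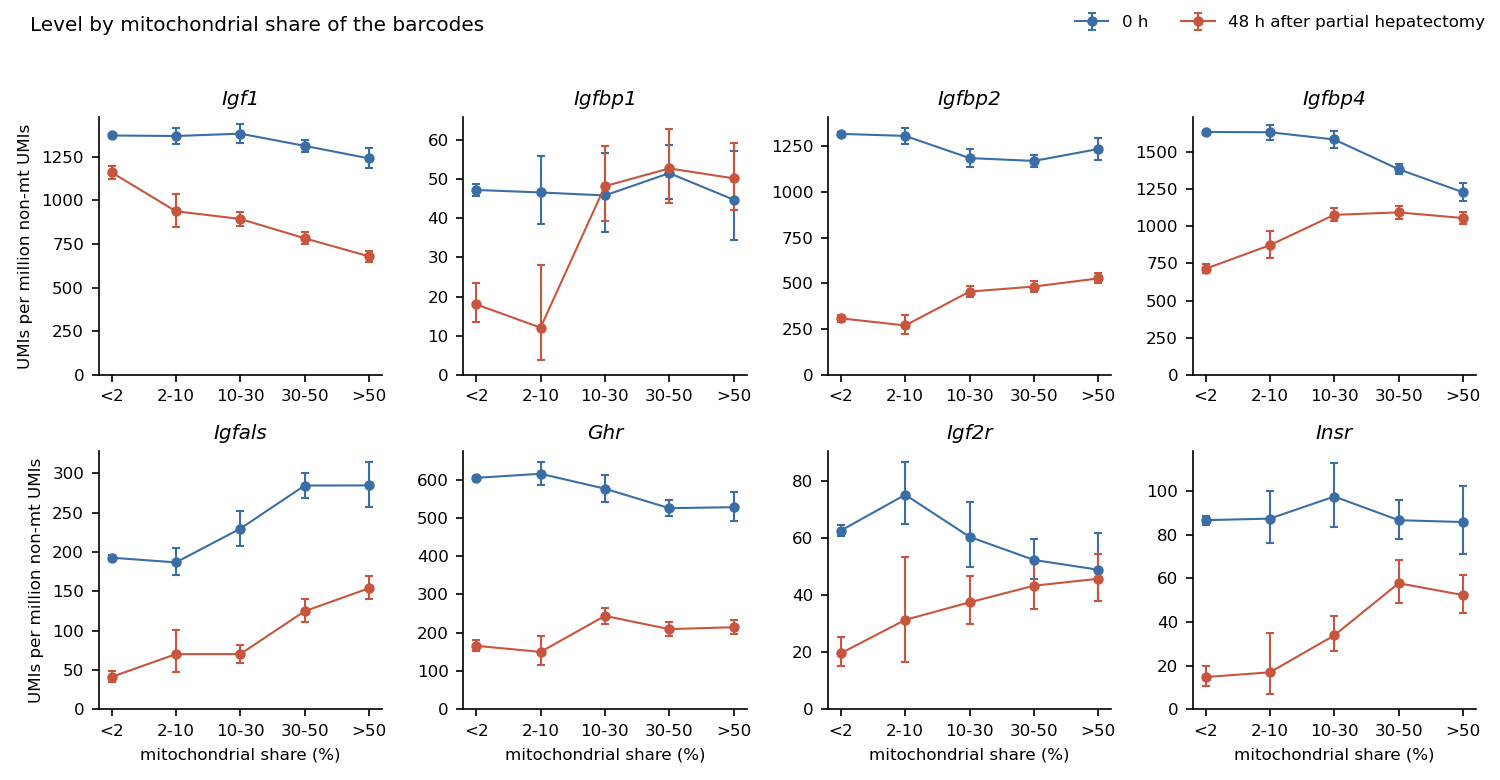
Level of 8 genes (y axis, UMIs per 1000000 non-mitochondrial UMIs, from 0) by the mitochondrial share of the barcodes (x axis, 5 steps) at 0 h (blue) and 48 h (red), with 95% Poisson intervals and barcodes of other cell types left out below 30%. At 48 h Igf1 runs from 1161 under 2% to 680 over 50%, and Igfals from 40.9 to 154.

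The non-hepatocyte barcodes were also compared by the UMIs of a member per UMI of the hepatocyte reference, relative to the low-mitochondrial barcodes of the same library. At 0 h Igfbp2 (0.912 to 1.03), Ghr (1.06 to 1.10) and Igfals (0.799 to 1.10) were near 1 in endothelial, macrophage and stromal barcodes, and all 9 intervals held 1. In the high-mitochondrial barcodes of that library, Igfbp2 was at 0.647 of the low-mitochondrial ratio (0.632 to 0.663), Ghr at 0.626, Igfbp4 at 0.593 and Igf1 at 0.679, whereas Igfals was at 1.06 (1.01 to 1.12). Igf1 was 1.46-fold over that ratio in macrophage barcodes (1.36 to 1.56, 818 UMIs) against 1.01-fold in endothelial and 1.03-fold in stromal barcodes. Igfbp4 was 1.44-fold over it in endothelial barcodes (1.32 to 1.57, 535 UMIs), 1.06-fold in macrophage and 1.10-fold in stromal barcodes. Igf2r was 1.61-fold over it in endothelial barcodes (1.02 to 2.42) on 23 UMIs.

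At 48 h Igfbp4 stood 3.67-fold over the low-mitochondrial ratio in endothelial barcodes (3.12 to 4.30, 166 UMIs), 3.20-fold in stromal barcodes (2.77 to 3.69, 213 UMIs) and 1.78-fold in macrophage barcodes (1.39 to 2.25, 73 UMIs). The 3 classes were small, at 27, 43 and 21 barcodes. Igf1 was 1.28-fold over the ratio in macrophage barcodes (1.02 to 1.58), 0.830-fold in endothelial (0.634 to 1.07) and 0.934-fold in stromal barcodes (0.758 to 1.14). Igf2r and Insr were 4.05-fold (2.22 to 7.04, 17 UMIs) and 3.18-fold (1.43 to 6.40, 10 UMIs) over it in all non-hepatocyte barcodes together. Igfbp2, Ghr and Igfals had intervals that held 1 in all 3 classes. In the high-mitochondrial barcodes at 48 h Igf1 was at 0.434 of the low-mitochondrial ratio (0.414 to 0.454), whereas Insr was at 2.58-fold (1.88 to 3.62) and Igfals at 2.37-fold (1.96 to 2.90). Per UMI of the hepatocyte reference, Igf1 and Ghr (0.886, 0.796 to 0.986) were thus lower in these barcodes than in the low-mitochondrial barcodes. Higher were Insr, Igfals, Igfbp1 (1.97-fold, 1.47 to 2.69), Igf2r (1.58-fold, 1.18 to 2.13), Irs1 (2.04-fold, 1.11 to 4.04) and Igfbp2 (1.13-fold, 1.05 to 1.22). The intervals of Igfbp4 and Irs2 held 1.

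**Figure D4:**
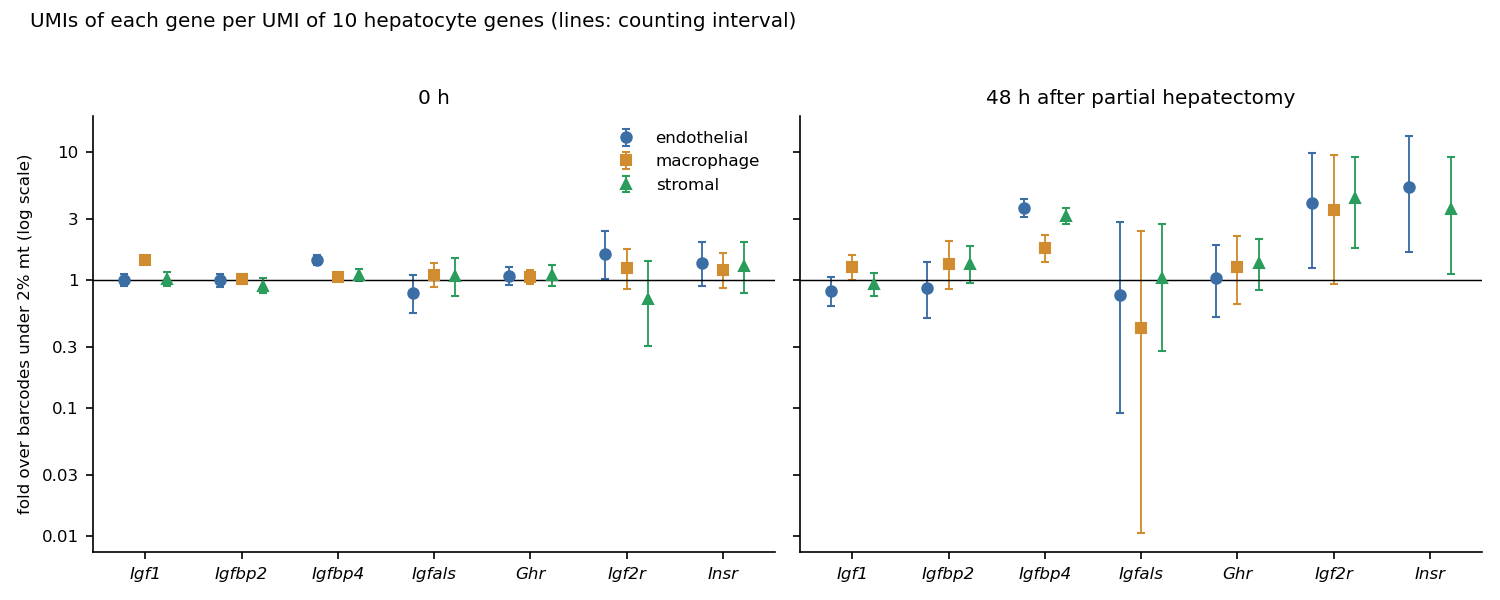
UMIs of 7 genes (x axis) per UMI of the 10 hepatocyte reference genes, as a fold over the low-mitochondrial barcodes of the same library (y axis, log scale), in endothelial (circles), macrophage (squares) and stromal (triangles) barcodes, with 95% counting intervals and classes with no UMI of a gene not drawn. Igfbp2, Ghr and Igfals have intervals that cross 1 in both panels, and Igfbp4 at 48 h lies at 3.67 in endothelial barcodes.

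Within the high-mitochondrial barcodes the members varied between clusters, which were made without the 10 genes and the other genes of the pathway. One cluster in each library was the richest in Glul, the glutamine synthetase of the hepatocytes next to the central vein, and held 291 of 3870 barcodes at 0 h (3047 CPM of Glul, 384 CPM in the next cluster) and 126 of 765 at 48 h (439.9 and 244 CPM). The contrasts with these clusters were chosen after the values had been seen and are descriptions. At 0 h Igfbp2 was at 350 CPM in the Glul-rich cluster and 1257 CPM in the other high-mitochondrial barcodes, 3.59-fold lower (3.07 to 4.22), and it was highest, at 1688 CPM, in a cluster led by Hamp, the hepcidin gene. Igfbp1 was at 107 CPM in the Glul-rich cluster and 44.9 CPM elsewhere, 2.39-fold higher (1.72 to 3.26). Igf1 was at 937 and 1327 CPM and Igf2r at 81.0 and 49.0 CPM, while Igfbp4 was at 1325 and 1348 CPM. The cluster led by the nuclear transcript Malat1, followed by Sds and Hsd17b6 and with Cyp2f2 among its top 10 genes, had 32.2 CPM of Igfbp1 and 1464 CPM of Igf1.

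At 48 h Igfbp1 was again higher in the Glul-rich cluster, at 90.7 against 43.2 CPM (2.10-fold, 1.59 to 2.75), and Igfbp2 lower, at 386 against 532 CPM (1.38-fold, 1.23 to 1.55). Compared over time, Igfbp2 was at 350 and 386 CPM in the Glul-rich clusters (log2 0.14, -0.14 to 0.42). In the remaining high-mitochondrial barcodes it was at 1257 and 532 CPM (log2 -1.24, -1.31 to -1.17), and these counting intervals did not overlap. The Glul-rich clusters were unlike in Glul itself, at 3047 CPM at 0 h and 439.9 CPM at 48 h. Whether they held like cells was not tested. Ghr had log2 ratios of -1.23 and -1.37 in the same parts, and Igfals was at 252 and 125 CPM in the Glul-rich clusters and at 287 and 143 CPM in the rest, both with overlapping intervals of the ratio, beside medians of all genes of 0.36 and 0.56. The cluster of 74 barcodes richest in Mki67, a proliferation marker (265 CPM), had 25.8 CPM of Igfbp1 against 56.8 CPM in the other barcodes (2.20-fold lower, 1.43 to 3.54) and 79.5 CPM of Igfals against 153 CPM (1.93-fold lower, 1.51 to 2.50). Igf1 was at 823 CPM there and 707 CPM elsewhere, and Insr at 52.6 and 55.3 CPM. Those 74 barcodes had a median of 9080 non-mitochondrial UMIs against 4098 in the rest, and the part of depth was not tested. The highest Igfbp1 level at 48 h, 145 CPM, was in a cluster of 60 barcodes led by Chd9, Csad, Igfbp1 and Cyp2c29. One 0 h cluster of 41 barcodes, led by macrophage and endothelial genes, was left unnamed, and an endothelial cluster of 11 barcodes was found at 48 h.

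**Figure D5:**
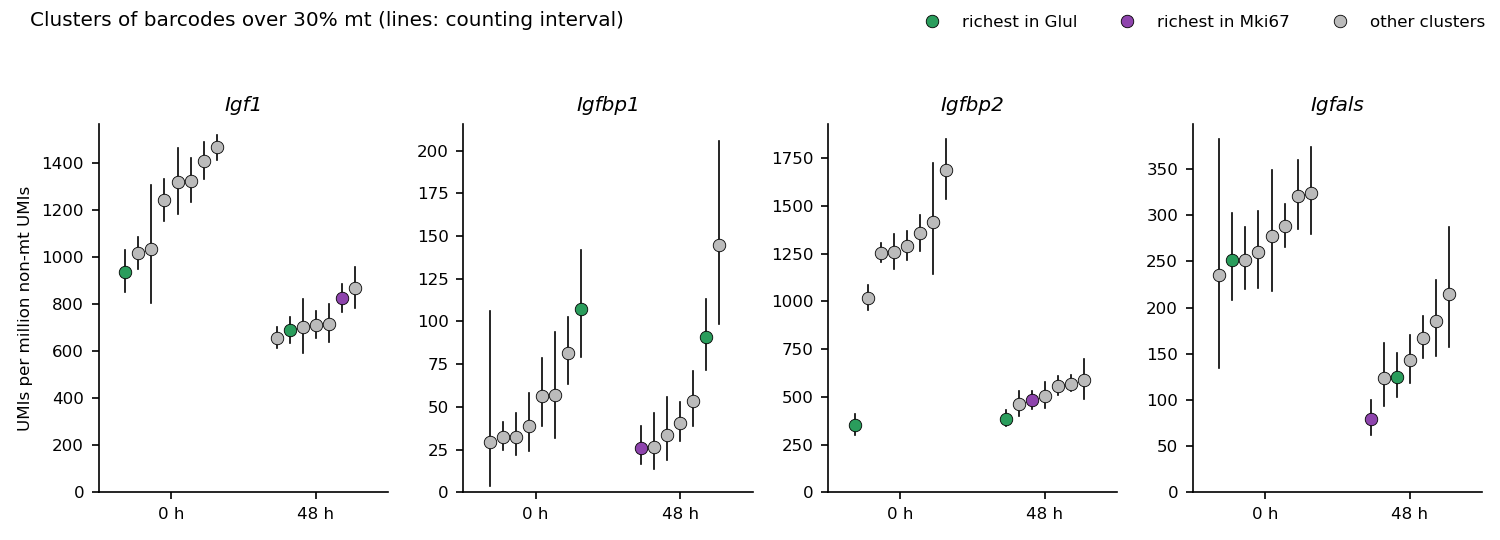
Level of Igf1, Igfbp1, Igfbp2 and Igfals (y axis, UMIs per 1000000 non-mitochondrial UMIs, from 0) in each cluster of at least 30 high-mitochondrial barcodes at 0 h and 48 h (x axis, clusters ordered by level), with 95% Poisson intervals, the Glul-rich cluster in green and the Mki67-rich cluster in purple. Igfbp2 at 0 h is at 350 in the Glul-rich cluster, below every other cluster, and the clusters lie between 386 and 589 at 48 h.

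In high-mitochondrial barcodes thinned to 1000 UMIs, the spread over single barcodes at 0 h was widest for Igfbp2 and Igfbp1. The variance over the mean, which is 1 for counting noise alone, was 1.28 for Igfbp2 at 0 h and 1.22 at 48 h in high-mitochondrial barcodes, and 1.03 and 1.06 in low-mitochondrial barcodes. For Igfbp1 at 0 h it was 1.15 in the high- and 1.03 in the low-mitochondrial barcodes. For Igfals it was 0.965 at 0 h and 1.01 at 48 h in the high-mitochondrial barcodes.

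Other genes of the pathway were read from lists that held 67 genes. Of the 35 that passed the filter in the high-mitochondrial barcodes, 11 were at least 2-fold higher and 4 at least 2-fold lower, beside 30.6% and 5.52% of all 6718 genes. The count of higher genes was thus near the share over all genes. The median log2 ratio was 0.58 over the 35, beside 0.54 for all genes. The 4 lower ones were Ceacam1 (log2 -2.18), a receptor that promotes insulin clearance, G6pc (-2.14), the last enzyme of glucose release, and Cish (-1.94) and Socs2 (-1.34), feedback inhibitors of growth hormone signalling. Cish was at 39.1 and 10.2 CPM and Socs2 at 44.1 and 17.4 CPM, beside 526 and 212 CPM for Ghr. The 4 with the highest ratios were Foxo1 (1.69), the forkhead factor that insulin restrains, Pck1 (1.51), an enzyme of gluconeogenesis, Ptpn1 (7.61 and 21.6 CPM, past the level filter only through 48 h), a phosphatase of the insulin receptor, and Akt1 (1.34), a kinase downstream of PI3-kinase. Their ratios stood at percentiles 80.6 (Akt1) to 88.9 (Foxo1) of all genes that passed. With TMM factors only Foxo1 of these 4 stayed at least 2-fold higher. Of the 12 other ligands and binding proteins none passed the filter in high-mitochondrial barcodes, and Igf2 had 0 UMIs there in both libraries. In the non-hepatocyte barcodes Igfbp7 was at 502 and 1145 CPM, Igfbp5 at 2.28 and 17.8 CPM, and Igfbp3 at 44.8 and 17.8 CPM. Igfbp5 passed the level filter only through its 48 h level. Igf1r, the IGF-1 receptor, was at 22.8 and 42.0 CPM there and at 0.346 and 0.196 CPM (2 and 1 UMIs) in the high-mitochondrial barcodes. The cell makeup of the non-hepatocyte set differed between the time points, as given above, and its part in these levels was not tested.

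For the 8 members with a mean of at least 10 CPM over 14 sets of at least 30 barcodes (mitochondrial steps and cell classes of both libraries), the genes of closest pattern were taken by Pearson's r on log2(CPM + 10) among 7397 others. Igfbp2 was closest to Slc35e2 (r = 0.996), C8b and Serpina3k, Ghr to Adck3 (0.992), Cyp2j5 and Slc35e2, and Igfals to Stra6l (0.990), Cyp2d26 and Itih1. Insr was closest to C1s1 (0.983), Ept1 and Syvn1, Igfbp4 to Lgr4 (0.973), Pm20d1 and Slc19a2, and Igfbp1 to Mocos (0.961), Herpud1 and Serpind1. Igf1 was closest to Iyd (0.956), Hebp1 and Apoc1, and Igf2r to Fam83h (0.916), Ero1lb and Tex2. The 14 points share 2 libraries, their depth and their free RNA, and are not independent.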

How the data were processed

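Hepatocyte suspensions of 2 mice, 1 per time point, were profiled on the 10x Genomics Single Cell platform (version 2 chemistry). For each gene in each barcode the deposited matrices hold raw UMI counts. The submitters' processing notes name Cell Ranger and mm10, and the Cell Ranger version is not given in the sources used here. Barcodes were grouped by their share of UMIs from 13 mitochondrial genes (over 30% or under 2%). Non-hepatocyte barcodes were those at or under 30%, with at least 1000 UMIs and 500 genes and a depth of 10% of that of the 30th deepest one, in Leiden clusters (scanpy 1.11.5, igraph 0.11.9, resolution 1.0, 2000 variable genes without the pathway genes, 30 components, 15 neighbours) named from marker genes. A hepatocyte cluster with at least 2 markers of another class and none of its own among its top 10 genes was left unnamed. Clusters with at least 2 markers of another class were divided once more and their parts named. Names were also withheld for ties between classes, for low depth and for myeloid genes among the top 10 of a cluster of another class. The myeloid rule was set after the leading genes had been seen. No doublet caller was run.

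Counts were summed per set and scaled per 1000000 non-mitochondrial UMIs. Levels carry exact Poisson, shares Clopper-Pearson and ratios exact conditional binomial intervals of 95% (scipy 1.17.1, numpy 2.4.6, pandas 2.3.3, Python 3.11.15), which cover counting error only. Genes with a mean of at least 10 CPM in a comparison passed the level filter, and a ratio of at least 2-fold was called. With 1 library per time point no p-value was computed. The ratio, filter and call steps were also run on simulated Poisson counts with planted changes. That setting held no differences between mice or libraries and cannot speak to them. TMM factors came from edgeR 4.0.16 in R 4.3.3, and 22 alternatives were listed at the start and 2 added after the data were seen.

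All 10 genes are named. Of the other pathway genes the 4 highest and 4 lowest ratios past 2-fold in high-mitochondrial barcodes are named, together with every gene of a count of 5 or fewer and the 3 genes closest in pattern to each of the 10 that passed the filter. The genes, lists and comparisons were chosen with earlier results of these data known. Gene positions are from GENCODE (GRCm38) and promoter windows from RefSeq (GRCm38.p6).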

Additional observations from a re-analysis of the deposited data

How the results depend on the processing

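Of the counts of members past 2-fold, 157 stayed within 1.5 times the main count over the alternatives and 11 did not. Only the number was compared, so a count could stay while its members changed. Main counts of 0, such as those of members higher at 48 h, were included. Of the members' log2 ratios 965 stayed within their counting interval, 231 moved out of it and 2 that were called at 2-fold reversed. Sign changes of ratios not called were filed among the 965 and 231. In high-mitochondrial barcodes Igfbp1, Irs1 and Irs2, above 0 in the main run, were below 0 in 4, 5 and 2 of 16 alternatives. Of the thinned shares 14 stayed and 106 moved with another depth, and a change of depth by itself moves such shares. That of Igf1 in high-mitochondrial barcodes was 46.3% and 30.3% at 500 UMIs. In high-mitochondrial barcodes the number lower at 48 h went from 3 to 5 with TMM and with median-of-ratios factors. Igfals there was past 2-fold in 11 of 16 alternatives (log2 -1.58 to -0.89), Ghr ranged from -1.87 to -1.22 and Igfbp2 from -1.79 to -1.18. Between non-hepatocyte and low-mitochondrial barcodes at 0 h the number apart went from 0 to 8 with either set of factors, to 1 (Insr) with the 1500 deepest barcodes and to 1 (Igfals) with endothelial barcodes only. Between high- and low-mitochondrial barcodes it went from 0 to 4 at 0 h and from 4 to 1 at 48 h when mitochondrial UMIs were counted in the total, where the 1 was Igf1, lower, and none of the 4 was kept. It went from 4 to 1 (Igfals) at 48 h with a mean of at least 50 CPM. Between non-hepatocyte and low-mitochondrial barcodes at 48 h it went from 5 to 3 (Igf1, Igfbp2 and Ghr) with that filter and to 3 (Igf1, Igfbp2 and Igf2r, the last not among the 5) with a depth of at least 25% of the 30th deepest barcode. The last setting left 5 non-hepatocyte and 17 low-mitochondrial barcodes, and reversed Igfbp1 (log2 0.58) and Igfals (0.43). Apart from the changed filter and the fewer barcodes, the cause was not tested. No paired analysis was possible because each time point had 1 library. Depth limits Irs1 and Irs2 in all sets and most members in the 91 non-hepatocyte barcodes at 48 h.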
